A study of Bos taurus with 15 samples.

Results

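Genes that build the junctions between epithelial cells were examined in bovine endometrial epithelial cells (bEECs, the lining cells of the uterus) kept with or without early embryos. Members were chosen by gene name. They are the claudins (CLDN), desmogleins and desmocollins (DSG, DSC), plakophilins (PKP), connexins of the GJA, GJB and GJC families and TJP scaffold proteins, together with CDH1, CDH2, CDH3, CTNNA1, CTNNB1, CTNND1, OCLN, F11R, DSP and JUP. The rule found 62 genes among the 19994 in the deposited table. Of these, 31 reached 10 normalized counts in 5 or more libraries and were tested, 24 were detected below that level, and 7 were at 0 in every library.

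Messenger RNA was sequenced from 15 bEEC libraries, 5 per group. In the contact group (Contact+ in the labels) morulae made in vitro, at day 5.5 and 15 ± 1 to a well, rested on the cells for 48 h. In the transwell group (Contact⎼) the morulae were held in a transwell above the cells, and in the group of cells alone (Control bEEC) there were no embryos. All groups came from the same stock, scraped from 4 uteri of beef cows, pooled, and used at passage 3 and 90% confluence, and all wells held a transwell insert and SOF medium with serum. The stock is 1 mixture of animals, so the p-values speak for cultures of that mixture and not for cows.

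Epithelial cells are held together by 4 kinds of contact. At adherens junctions, cadherins bind across the gap and catenins tie them to actin. At desmosomes, desmogleins and desmocollins bind across the gap, and plakoglobin, plakophilins and desmoplakin anchor them to keratin filaments. At tight junctions, claudins, occludin and junctional adhesion molecules seal the space and set which ions pass, on a scaffold of TJP proteins, and at gap junctions connexins form channels between neighbouring cells. In the uterus the lining is a sealed sheet that the embryo meets first, and remodelling of its junctions is a known part of embryo attachment in many mammals.

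The libraries held 4195091 to 19268029 assigned reads in the contact group, 12938091 to 19792557 in the transwell group and 15507719 to 18618467 in cells alone. Contact libraries 97 and 108 were the shallowest, with 4195091 and 6104652 reads. The numbers that end the sample titles form runs, which are 24 to 30, 83 to 90, 97 by itself, and BEEC.103 to 110 (BEEC is the start of every title). The labels do not say what a run is, and values within a run are given beside the results. Transwell library 90 had the lowest value of its group for CDH1, DSG2, DSP, JUP and TJP1. Values per library are listed below in the order 28, 87, 97, 107 and 108 for contact, 30, 89, 90, 109 and 110 for transwell, and 24, 83, 84, BEEC.103 and BEEC.104 for cells alone.

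The labelled cell type was set against its markers. The keratins KRT8, KRT18 and KRT19 were abundant, with KRT8 at a mean of 34118, 35842 and 33592 normalized counts in contact, transwell and cells alone. KRT7 had 485 to 893 and MUC1 had 14.2 to 47.7 over all libraries, and CDH1, DSP and OCLN were present in every library. EPCAM, an adhesion protein of most epithelia, was close to absent, with means of 0.672, 0.714 and 0.513. The epithelial factor GRHL2 was read in 1 transwell library only. Transcripts of a stromal list (VIM, collagens, PDGFRA, PDGFRB, DCN, LUM, THY1) summed to 341240 to 407636 in contact, 315245 to 382622 in transwell and 360586 to 384733 in cells alone. COL1A1, COL1A2 and COL3A1 had the largest values in this sum, and THY1 did not exceed 8.95 in any library. An epithelial list (CDH1, DSP, OCLN, EPCAM, KRT7, KRT8, KRT18, KRT19, MUC1) summed to 50542 to 69394, 52896 to 73366 and 53729 to 70494 in the same order. Each sum is compared between groups and not with the other sum. In bulk RNA, fewer cells of a type and less RNA per cell cannot be told apart, and this holds for every result given here. Of the embryo markers, 6 of 18 in the table were at 0 in every library, and the list summed to 56.2 to 126.7 in contact, 54.6 to 98.2 in transwell and 43.6 to 110.2 in cells alone, with 0 of the 2 tested called.

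The members differed widely in whether they were read at all. All 3 cadherins, all 3 catenins, OCLN, F11R and all 3 TJP genes passed the filter, as did 3 of 7 desmosomal cadherins, 4 of 6 plaque genes, 8 of 16 connexins and 5 of 22 claudins. The claudins tested were CLDN1, CLDN12, CLDN14, CLDN15 and CLDN16. CLDN3, CLDN4 and CLDN7, claudins common in simple epithelia, were below the filter, with highest values of 15.6, 4.47 and 1.81 normalized counts in any library. CLDN5, CLDN8, CLDN9, CLDN17, CLDN20, CLDN25 and CLDN34 had 0 reads among 237181786 assigned reads, which allows up to 3 reads of that total, a limit that covers counting error only. Normalized counts are not divided by transcript length, so levels are compared between groups for 1 gene and not between genes.

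**Figure D1:**
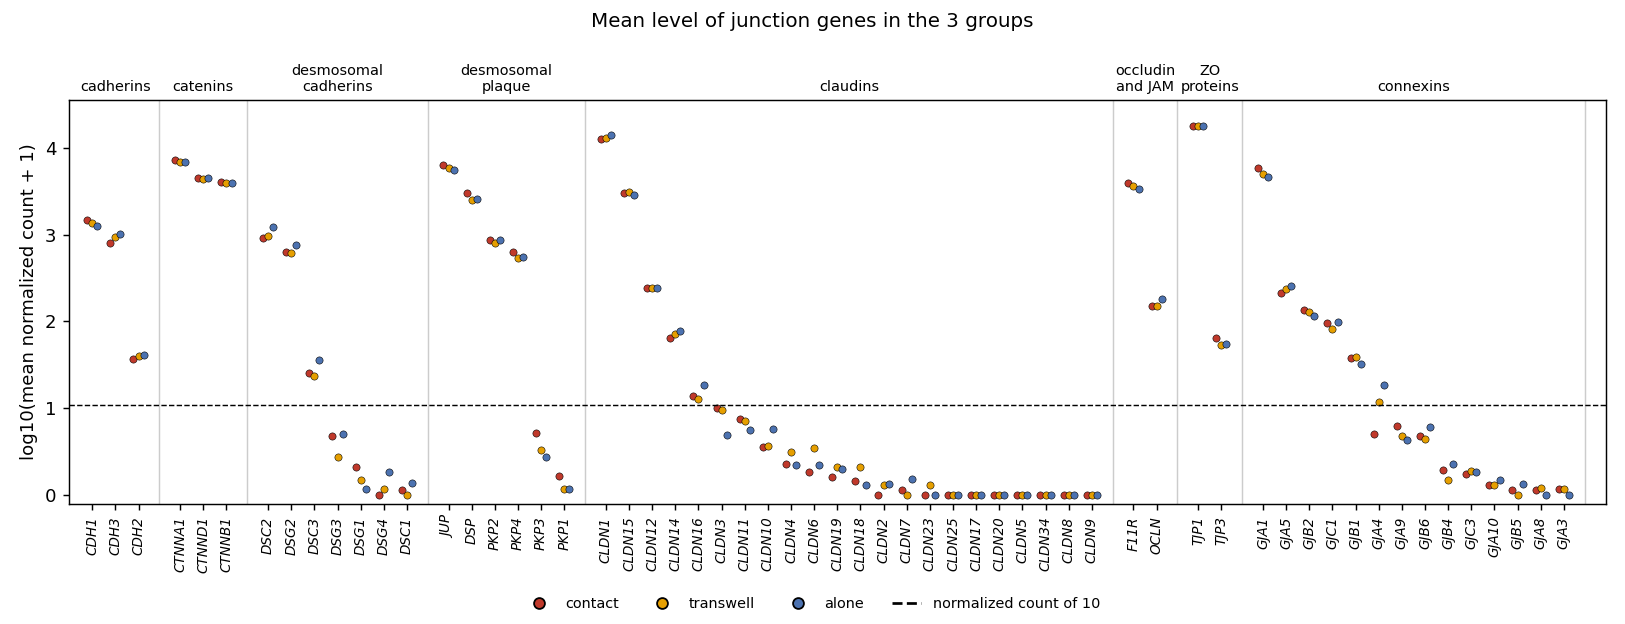
Mean normalized count of 59 junction genes in the 3 groups, as log10(mean + 1), ordered within each role by level; the dashed line marks a normalized count of 10. Points of the 3 groups lie close together for most genes, GJA4 and DSC2 being lower in contact than in cells alone, and 7 claudins lie at 0.

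Contact with embryos was compared with cells alone to find out what embryos lying on the cells change. The desmosomal cadherin DSC2, the connexin GJA4 and the cadherin CDH3 were lower in contact, and the desmosomal anchor DSP, the gap junction protein GJA1 and the tight junction adhesion molecule F11R were higher. Their changes were small, with fold changes of 0.740 to 1.26 except for GJA4 at 0.240. A limma fit over all 12559 genes that passed the filter called 7 of 31 members at an adjusted p under 0.05, beside 13.0% of all tested genes. Of these, 3 were higher, beside 7.17% of all genes, and 4 were lower, beside 5.78%. The median log2 fold change was 0.0014 over the 31 members and -0.011 over all tested genes.

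At adherens junctions, CDH1 (E-cadherin, the classical cadherin of epithelia) had 1698, 1410, 1462, 1417 and 1377 normalized counts in contact, 1446, 1536, 952, 1501 and 1297 in transwell, and 1335, 1245, 1133, 1349 and 1287 in cells alone. Every contact library lay above every library of cells alone, with contact library 28 highest, while the transwell libraries spanned both. The log2 fold change of contact over cells alone was 0.21 ± 0.10 (SE), with a limma adjusted p of 0.195, so CDH1 was not called. It was called higher in 3 of 28 alternatives, in a fit of the 2 groups alone (limma adjusted p = 0.0305), with library weights (0.0475) and without transwell library 90 (0.0349). CDH3 (P-cadherin) had 781, 841, 800, 791 and 785 in contact, 960, 1133, 1016, 756 and 844 in transwell, and 1037, 1146, 1135, 885 and 840 in cells alone. The contact libraries were close to each other, and cells alone split by run, with libraries BEEC.103 and BEEC.104 near the contact level. CDH3 fell by 0.32 ± 0.10 on the log2 scale (limma adjusted p = 0.0354), and the difference was -0.41, -0.44 and -0.13 within the runs 24 to 30, 83 to 90 and BEEC.103 to 110. The call was lost in 11 of 28 alternatives, among them those without contact library 28 (0.0722), 87 (0.0513), 97 (0.0686), 107 (0.0610) or 108 (0.0652) or cells alone 24 (0.0785), 83 (0.112) or 84 (0.103). CDH3 and CDH1 are neighbours in the RefSeq annotation of assembly ARS-UCD2.0, and their log2 fold changes had opposite signs.

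The catenins, which link cadherins to actin and hold them at the membrane, were not called. CTNNA1 (alpha-catenin) had 7707, 6903, 7064, 7325 and 7349 in contact, 7123, 6276, 6114, 7435 and 7086 in transwell, and 7381, 6519, 6263, 7223 and 7043 in cells alone. The 3 groups overlapped throughout. The log2 fold changes of contact over cells alone were 0.08 (95% interval -0.065 to 0.225) for CTNNA1, 0.03 (-0.121 to 0.173) for CTNNB1 (beta-catenin) and 0.00 (-0.110 to 0.117) for CTNND1, and limma called 0 of the 3 in any comparison, with 0 at an unadjusted p under 0.05. CDH2 (N-cadherin), a cadherin of mesenchymal and neural cells, averaged 36.1 ± 10.5, 39.0 ± 10.7 and 40.5 ± 10.3 (SD, n = 5 each) in contact, transwell and cells alone and was not called. CDH11, a cadherin outside the member rule, had 9013 to 12490 normalized counts over the 15 libraries and was not called in any comparison.

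At desmosomes the 3 tested transmembrane genes had log2 fold changes below 0, and the 4 tested plaque genes had log2 fold changes above 0 or at 0.00. DSC2 (desmocollin) had 873, 905, 1052, 797 and 922 normalized counts in contact, 1054, 921, 884, 947 and 1008 in transwell, and 1279, 1276, 1341, 1195 and 1053 in cells alone. All contact libraries were below all libraries of cells alone, by a narrow margin between contact library 97 and cells alone BEEC.104, and only transwell library 30 reached the lowest of cells alone. DSC2 fell by 0.43 ± 0.079 on the log2 scale in contact (limma adjusted p = 0.000671), to 0.740 of cells alone. It was lower in each run (-0.55 in 24 to 30, -0.53 in 83 to 90, -0.39 in BEEC.103 to 110) and was called in 28 of 28 alternatives.

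The other desmosomal cadherins pointed the same way without a call. DSG2 (desmoglein) had 692, 613, 659, 599.7 and 625 in contact, 652, 672, 456, 707 and 605 in transwell, and 786, 753, 748, 802 and 727 in cells alone, so that no library with embryos reached the lowest of cells alone. Its log2 fold change in contact was -0.26 ± 0.091 (limma adjusted p = 0.0650), and it was called in 4 of 28 alternatives: without transwell library 90 (0.00516), in a fit of the 2 groups (0.00511), with library weights (0.00614) and with the run as a block (0.0368). DSC3, a desmocollin best known from stratified epithelia, had 20.1, 22.5, 37.0, 23.4 and 18.9 in contact, 34.1, 19.6, 14.9, 25.7 and 19.1 in transwell, and 35.0, 39.7, 40.2, 34.4 and 27.1 in cells alone. Contact library 97 was the only contact library within the range of cells alone. The log2 fold change of DSC3 in contact was -0.54 ± 0.22 (adjusted p = 0.119 by limma). DSC3 was called without contact library 97 (0.0420), with library weights (0.0261) and with the run as a block (0.0260). Library 97 is the only library of its run, so the block fit also leaves it out of the group difference. DSG2 and DSC3, like PKP4 below, were chosen for full values after their values were seen.

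In the RefSeq table the desmosomal cadherin genes lie side by side, in the order DSG2, DSG3, DSG4, DSG1, DSC1, DSC2, DSC3, followed by CDH2. Within this row DSG2, DSC2, DSC3 and CDH2 passed the filter. DSG3, DSG4, DSG1 and DSC1 did not exceed 11.7, 3.26, 2.36 and 1.81 normalized counts in any library. The 4 tested neighbours had log2 fold changes of -0.26, -0.43, -0.54 and -0.18 in contact, of which only that of DSC2 was called.

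DSP (desmoplakin), which anchors desmosomes to keratin filaments, had 3273, 3085, 2859.8, 2964 and 2910 in contact, 2564, 3011, 2204, 2553 and 2317 in transwell, and 2469, 2547, 2494, 2516 and 2708 in cells alone. Every contact library was above every library of cells alone, and transwell library 89 was the only one without contact that reached the contact range. DSP rose by 0.24 ± 0.073 on the log2 scale (limma adjusted p = 0.0291), and the difference was 0.41, 0.29 and 0.17 within the runs 24 to 30, 83 to 90 and BEEC.103 to 110. The call was lost without contact library 28 (0.0805) or 87 (0.0683) or cells alone 24 (0.0696), 83 (0.0608), 84 (0.0661) or BEEC.103 (0.0568), and was kept in the other 22 of 28 alternatives.

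JUP (plakoglobin), which joins both desmosomes and adherens junctions, had 6209, 6162, 5894, 6326 and 6797 in contact, 5999, 6269, 4959, 5897 and 5764 in transwell, and 5794, 5361, 5314, 5717 and 5518 in cells alone. The contact libraries lay above cells alone without overlap. Its log2 fold change was 0.18 ± 0.067 (limma adjusted p = 0.0848), and it was called higher in 5 of 28 alternatives, with the run as a block (0.0402) and without transwell library 90 (0.0295) among them. PKP4, a plakophilin also found at adherens junctions, averaged 629.6 ± 39.6, 542 ± 69.4 and 548 ± 27.9 (SD, n = 5 each) in contact, transwell and cells alone. The contact libraries, at 584 and above, did not overlap cells alone, at 583 and below, and the log2 fold change of 0.20 ± 0.082 was not called (limma adjusted p = 0.120); it was called in a fit of the 2 groups (0.0370) and without transwell library 90 (0.0447). PKP2 stood at 876 ± 54.5, 803 ± 21.2 and 875 ± 67.1 in the same order (SD, n = 5 each), with a log2 fold change of 0.00 (95% interval -0.133 to 0.136).

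In total 7 of 31 members had contact libraries that did not overlap cells alone, beside 13.6% of all tested genes. JUP, GJA1, CDH1, PKP4 and DSP lay above (5 members, beside 7.45% of all tested genes), and DSC2 and DSG2 below (2 members, beside 6.16%). At an unadjusted p under 0.05, 14 members passed, or 45.2%, beside 26.3% of all tested genes.

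**Figure D2:**
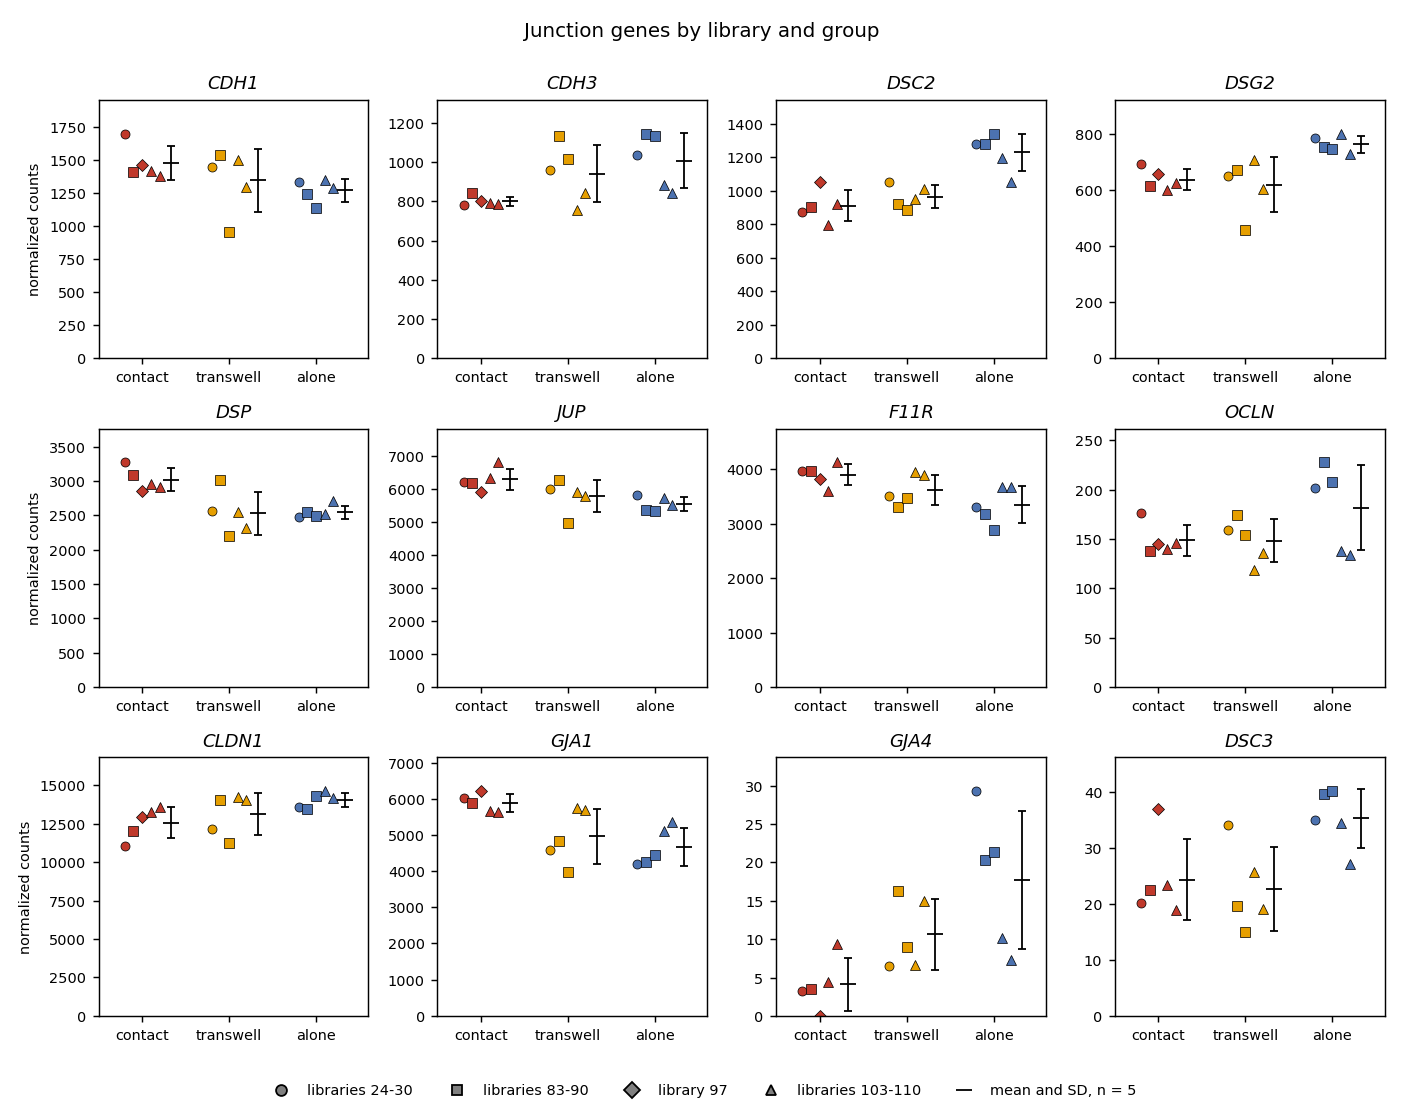
Normalized counts of 12 junction genes in each library, by group (contact, transwell, alone), with the run of the library number shown by the marker and the mean and SD of 5 libraries beside it; axes start at 0. DSC2 and DSG2 are below cells alone in the contact libraries and DSP above, while GJA1, CDH3 and OCLN in cells alone split between libraries BEEC.103 and BEEC.104 and the others.

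At tight junctions, CLDN1, a barrier claudin, had 11056, 12010, 12951, 13269 and 13552 normalized counts in contact, 12164, 14006, 11241, 14223 and 14014 in transwell, and 13601, 13479, 14268, 14617 and 14189 in cells alone. Contact libraries 28, 87, 97 and 107 were below all of cells alone and library 108 was not. The log2 fold change of -0.16 ± 0.077 was not called (limma adjusted p = 0.187). The other tested claudins had log2 fold changes of 0.01 (CLDN12), -0.26 (CLDN14), 0.07 (CLDN15) and -0.50 (CLDN16), and limma called 0 of 5 claudins in any comparison. At an unadjusted p under 0.05, CLDN1 passed in contact over cells alone and CLDN16 in transwell over cells alone.

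OCLN (occludin) had 176, 137, 145, 139.8 and 146 in contact, 159, 174, 154, 118 and 136 in transwell, and 202, 228, 208, 138 and 134 in cells alone. Libraries 24, 83 and 84 of cells alone were above every library with embryos, and libraries BEEC.103 and BEEC.104 were near the lowest contact libraries. The log2 fold change of -0.26 ± 0.14 was not called (limma adjusted p = 0.265), and it was -0.20, -0.66 and 0.07 within the runs 24 to 30, 83 to 90 and BEEC.103 to 110. F11R (junctional adhesion molecule A) had 3959, 3975, 3824, 3606 and 4127 in contact, 3503, 3306, 3468, 3944 and 3889 in transwell, and 3304, 3175, 2889, 3680.4 and 3678 in cells alone. Contact library 107 lay within the range of cells alone and the other contact libraries were above it.

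F11R rose by 0.23 ± 0.074 on the log2 scale (limma adjusted p = 0.0485), and the difference was 0.26, 0.39 and 0.07 within the 3 runs in the same order. The call was lost in 13 of 28 alternatives, among them both edgeR fits (0.0506 and 0.0561) and those without contact library 28 (0.0891), 87 (0.10), 97 (0.0752) or 108 (0.106), transwell 30 (0.0561) or 110 (0.0518), or cells alone 24 (0.0922), 83 (0.120) or 84 (0.153).

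Of the scaffold genes, TJP1 had 18765, 16636, 17085, 17867 and 18846 in contact, 18965, 20040, 11557, 20612 and 18973 in transwell, and 16594, 17175, 15838, 18939.8 and 20211 in cells alone. The groups overlapped, and transwell library 90 was far below every other library. Contact over cells alone stood at 0.01 on the log2 scale (95% interval -0.241 to 0.264). TJP3, a scaffold restricted largely to epithelia, had 62.7, 83.02, 50.4, 68.1 and 56.6 in contact, 47.9, 63.2, 55.9, 44.6 and 49.8 in transwell, and 61.9, 58.1, 41.0, 56.4 and 50.6 in cells alone, with overlapping groups and a log2 fold change of 0.25 ± 0.16 (limma adjusted p = 0.331).

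At gap junctions the connexins spread furthest, with log2 fold changes of -2.06 to 0.34. GJA1, the most widely expressed connexin, had 6010.1, 5873, 6214, 5671 and 5644 in contact, 4585, 4831, 3972, 5747 and 5693 in transwell, and 4199, 4243, 4452, 5097 and 5364 in cells alone. All contact libraries were above cells alone, and in transwell and cells alone the libraries BEEC.103 to 110 were nearest to contact or within its range. GJA1 rose by 0.34 ± 0.093 on the log2 scale, or 1.26-fold (limma adjusted p = 0.0181). Within runs the difference was 0.52, 0.43 and 0.11 in the order 24 to 30, 83 to 90 and BEEC.103 to 110, and the call was lost without contact library 97 (0.0505), cells alone 24 (0.0567) or 83 (0.0599), or both shallow contact libraries (0.0823).

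GJA4, a connexin of arterial endothelium and, in mice, of the oocyte, was read sparsely. Its reads were 4, 4, 0, 6 and 4 in contact, 8, 19, 12, 6 and 18 in transwell, and 36, 21, 25, 13 and 8 in cells alone. As normalized counts these were 3.21, 3.46, 0, 4.39 and 9.43 in contact, 6.49, 16.2, 8.95, 6.69 and 15.0 in transwell, and 29.3, 20.3, 21.4, 10.2 and 7.23 in cells alone. The highest contact library, shallow library 108, lay above the lowest of cells alone, and the 0 of library 97 allows up to 10.1 normalized counts at its depth.

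GJA4 fell by 2.06 ± 0.50 on the log2(value + 1) scale (limma adjusted p = 0.00813) and was called in 27 of 27 alternatives. No contact library reached the filter level of 10, so GJA4 passed the filter only through libraries of transwell and cells alone. With no filter it was also called (limma adjusted p = 0.0137). The size of the log2 fold change depended on the setting, at -1.42 with a pseudocount of 4 and -1.56 without contact library 97. It was -2.85, -2.29 and -0.35 within the runs 24 to 30, 83 to 90 and BEEC.103 to 110. Endothelial markers, 5 in the table and 4 tested, had 0 called and summed to 225 to 276 in contact, 233 to 281 in transwell and 219 to 302 in cells alone. Over all libraries VWF had 118 to 204 normalized counts, TEK 44.1 to 70.1, EMCN 26.9 to 52.9 and PECAM1 5.97 to 21.6. KDR, a defining receptor of endothelium, averaged 0.334, 0.223 and 0.194 in contact, transwell and cells alone.

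The connexins GJA5, GJB1, GJB2 and GJC1 were not called in contact over cells alone, with log2 fold changes of -0.25 to 0.25. GJA5 and GJB2 had an unadjusted p under 0.05.

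All 7 called members kept 1 sign in each of the 3 runs that hold both groups, and 20 of 31 members did, or 64.5%, beside 53.6% of all tested genes. The run BEEC.103 to 110 gave the smallest difference for each of DSC2, CDH3, GJA4, DSP, GJA1 and F11R. For DSC2, CDH3, F11R, GJA1, GJA4 and also OCLN, the libraries of cells alone in that run lay nearer to the contact level than the other libraries of cells alone did. The part of the run in these results was not tested beyond the block and the within-run values.

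**Figure D3:**
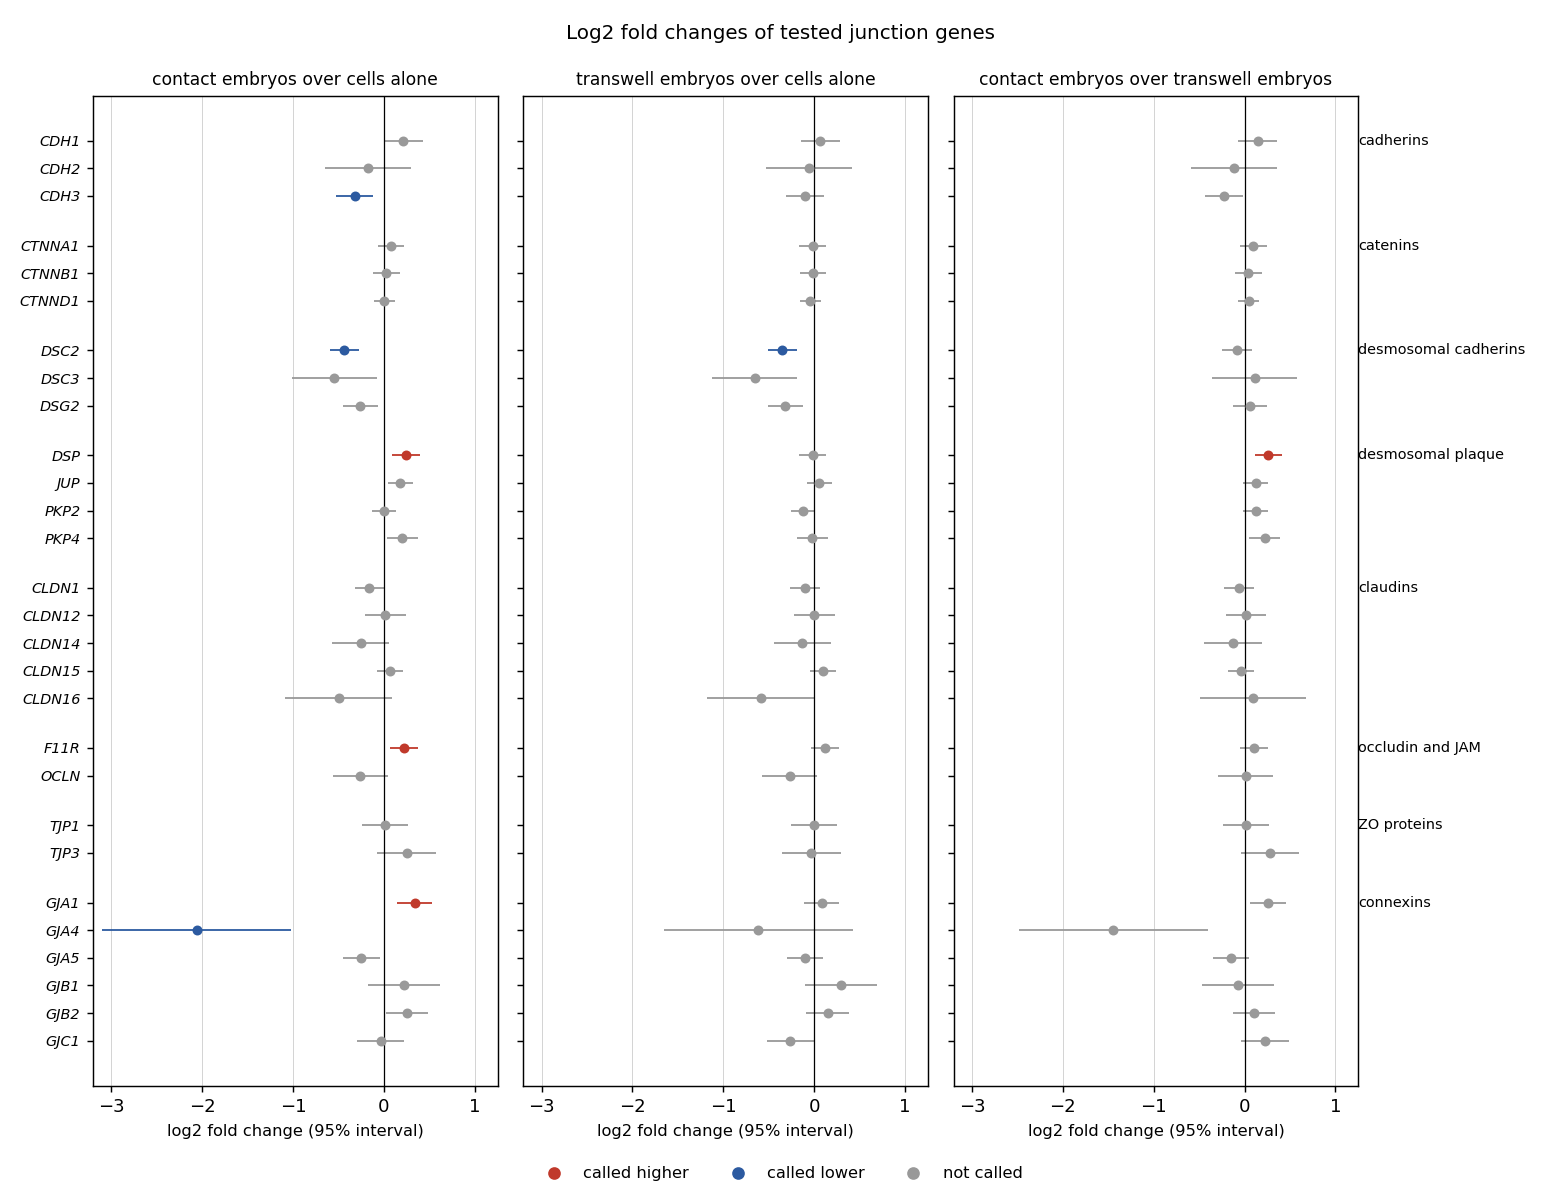
Log2 fold change (limma, log2(value + 1), 95% interval) of 28 tested junction genes, by role from top to bottom, for contact over cells alone, transwell over cells alone and contact over transwell; red marks a call higher and blue a call lower at an adjusted p under 0.05. There are 6 coloured genes on the left, 1 (DSC2) in the middle and 1 (DSP) on the right.

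Transwell embryos were compared with cells alone to see what changes without contact. DSC2 was lower in transwell, by 0.35 ± 0.079 on the log2 scale (limma adjusted p = 0.0182), with 4 of its 5 transwell libraries below all of cells alone and differences of -0.28, -0.54 and -0.20 within the runs 24 to 30, 83 to 90 and BEEC.103 to 110. It was the only 1 of 31 members called, beside 1.59% of all tested genes, with 0 members higher, beside 1.48%, and 1 lower, beside 0.111%. DSG2 and DSC3 stood at -0.32 ± 0.091 and -0.66 ± 0.22 without a call (limma adjusted p = 0.114 and 0.294), and DSG2 was the 1 member whose groups did not overlap, beside 2.95% of all tested genes, or 0.971% that lay below cells alone. DSP, GJA1, CDH3 and F11R, called in contact, stood at -0.02, 0.08, -0.10 and 0.12 here, and GJA4 at -0.62. The call of DSC2 was lost without transwell library 89 (0.0536) or cells alone 24 (0.0626), 83 (0.0652) or 84 (0.0807). At an unadjusted p under 0.05, 5 members passed, or 16.1%, beside 8.39% of all tested genes. This comparison and that of contact use the same 5 libraries of cells alone, so their values are not independent.

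Contact was compared with transwell embryos to see what touching the cells adds. DSP was higher in contact, by 0.26 ± 0.073 on the log2 scale (limma adjusted p = 0.0376), and higher in each run (0.35, 0.26 and 0.27 in the order 24 to 30, 83 to 90 and BEEC.103 to 110), although transwell library 89 reached the contact range. It was the only 1 of 31 members called, beside 5.56% of all tested genes. That is 1 member higher, beside 3.73%, and 0 lower, beside 1.82%. No member had groups that did not overlap (0 of 31, beside 5.44% of all tested genes). GJA1 at 0.26 ± 0.093, PKP4 at 0.22 ± 0.082, CDH3 at -0.22 ± 0.10 and GJA4 at -1.44 ± 0.50 had an unadjusted p under 0.05 without a call, and 6 of 31 members passed that level, or 19.4%, beside 19.7% of all tested genes. DSC2 differed by -0.08 (95% interval -0.249 to 0.0791) and DSG2 by 0.06 (-0.131 to 0.248). The call of DSP was lost in 10 of 28 alternatives, among them those without contact library 28 (0.0991), 87 (0.0808), 97 (0.0512) or 107 (0.0582) or transwell 30 (0.0654), 90 (0.0705) or 110 (0.0933), and a fit of the 2 groups (0.0999). GJA4 was called lower without contact library 108 (0.0349), and GJA1 higher without transwell library 109 (0.0437).

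**Figure D4:**
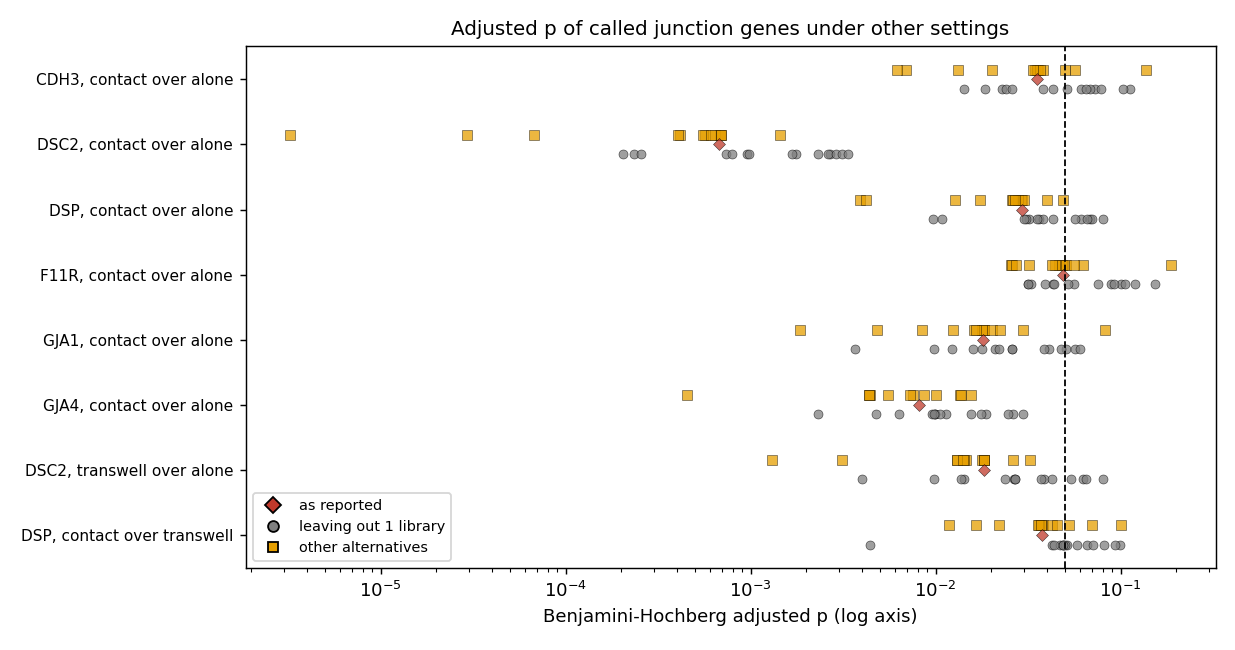
Adjusted p (log axis) of called junction genes as reported (diamond), in fits leaving out 1 library (circles) and under the other alternatives (squares); the dashed line marks 0.05. For DSC2 and GJA4 in contact over cells alone every point lies left of the line, while the points of CDH3 and F11R lie on both sides.

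The authors' deposited table gives their own fold changes and FDR, with cells alone over contact, turned here to contact over cells alone. It has an FDR under 0.05 for DSP, JUP, F11R and GJA1 as higher and CDH3, DSC2 and GJA4 as lower in contact than in cells alone, JUP (FDR 0.0386) being the one not called by limma. In the authors' deposited table DSC2 alone is lower in transwell than in cells alone (FDR 0.00157), and DSP alone is higher in contact than in transwell (FDR 0.0168). For GJA4 the authors' deposited table gives -0.55 on the log2 scale in contact over cells alone (FDR 0.000712), while DESeq2 on the recovered reads gave -2.12. The 2 values may be different measures of a fold change, so their sizes are not compared.

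A second list held 64 other genes of the junction machinery, 58 of them in the table and 43 tested. In contact over cells alone 3 were called higher (PLEKHA7, NECTIN2, MAGI3), beside 7.17% of all tested genes, and 5 lower (EVPL, CGNL1, PRKCZ, ARVCF, LIMA1), beside 5.78%. The 3 higher calls are near the share over all genes. The median log2 fold change of the list was 0.014, beside -0.011 over all tested genes. CDH26, CDSN, GJD4 and PANX3 were at 0 in every library. In transwell over cells alone PLEKHA7 alone was called, higher, beside 1.48% of all tested genes. In contact over transwell PLEKHA7 was called higher, beside 3.73% of all tested genes, and EVPL lower, beside 1.82%.

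PLEKHA7, which binds the cadherin and catenin complex and anchors microtubules at adherens junctions, had 581, 526, 440.2, 415 and 417 normalized counts in contact, 291, 414, 328, 302 and 250.01 in transwell, and 230.4, 235, 193, 217 and 209.6 in cells alone. Contact lay above transwell and transwell above cells alone, with no overlap, by a narrow margin between contact library 107 and transwell library 89. The log2 fold changes were 1.12 ± 0.12 in contact over cells alone (limma adjusted p = 4.63e-07), 0.53 ± 0.12 in transwell over cells alone (limma adjusted p = 0.0168) and 0.59 ± 0.12 in contact over transwell (limma adjusted p = 0.00346). The call in transwell was lost without transwell library 89 (0.0559) or cells alone 84 (0.0688), and the calls in the other comparisons were kept in 28 of 28 alternatives.

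EVPL (envoplakin), a relative of desmoplakin that links to keratin, had 3039.6, 3131, 2869.9, 3333 and 3549 in contact, 4141, 4908, 4652, 3834 and 3974 in transwell, and 4827, 5574, 5159.6, 4348 and 4082 in cells alone. Every contact library lay below every transwell library and all of cells alone. It fell by 0.59 ± 0.089 on the log2 scale against cells alone (limma adjusted p = 8.41e-05) and by 0.43 ± 0.089 against transwell (limma adjusted p = 0.00455), both in 28 of 28 alternatives. Its direction was opposite to that of DSP.

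CGNL1 (paracingulin), a cytoplasmic protein of tight and adherens junctions, fell to 800.1 ± 53.3 in contact, against 1113 ± 59.9 in cells alone (SD, n = 5 each), with no overlap (log2 fold change -0.48 ± 0.11, limma adjusted p = 0.00523). NECTIN2, an adhesion molecule of adherens junctions, rose to 332 ± 54.2 in contact, against 240.2 ± 17.4 in cells alone (SD, n = 5 each), with no overlap (0.45 ± 0.10, limma adjusted p = 0.00463). Both calls were kept in 28 of 28 alternatives. In contact over transwell neither gene was called. Some alternatives called NECTIN2 higher there, among them DESeq2 (adjusted p = 0.0244) and the run as a block (limma adjusted p = 0.0387). CGNL1 was called lower there without transwell library 90 (limma adjusted p = 0.00337) and with library weights (0.0363). ARVCF was called lower there with the run as a block (0.0371) and without transwell library 109 (0.0375). In contact over cells alone MAGI3, a scaffold of tight junctions, stood at 0.28 (limma adjusted p = 0.0384) and PRKCZ, a polarity kinase, at -0.24 (0.0173). ARVCF, a relative of CTNND1, stood at -0.34 (0.0488), and LIMA1, which links alpha-catenin to actin, at -0.20 (0.0417). These 4 calls in contact over cells alone were lost in 10, 2, 14 and 8 of 28 alternatives. That of MAGI3 was lost without any of the contact libraries (0.0511 to 0.0964) or cells alone 24 (0.114), 83 (0.102) or 84 (0.0906), and that of PRKCZ without cells alone 24 (0.0531). That of ARVCF was lost without any of the contact libraries (0.0549 to 0.128), transwell 30 (0.0586) or cells alone 24, 83 or 84 (0.124 to 0.138). That of LIMA1 was lost without contact library 28, 87 or 97 (0.0807 to 0.103), transwell 110 (0.0506) or cells alone 24, 83 or 84 (0.0963 to 0.124).

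**Figure D5:**
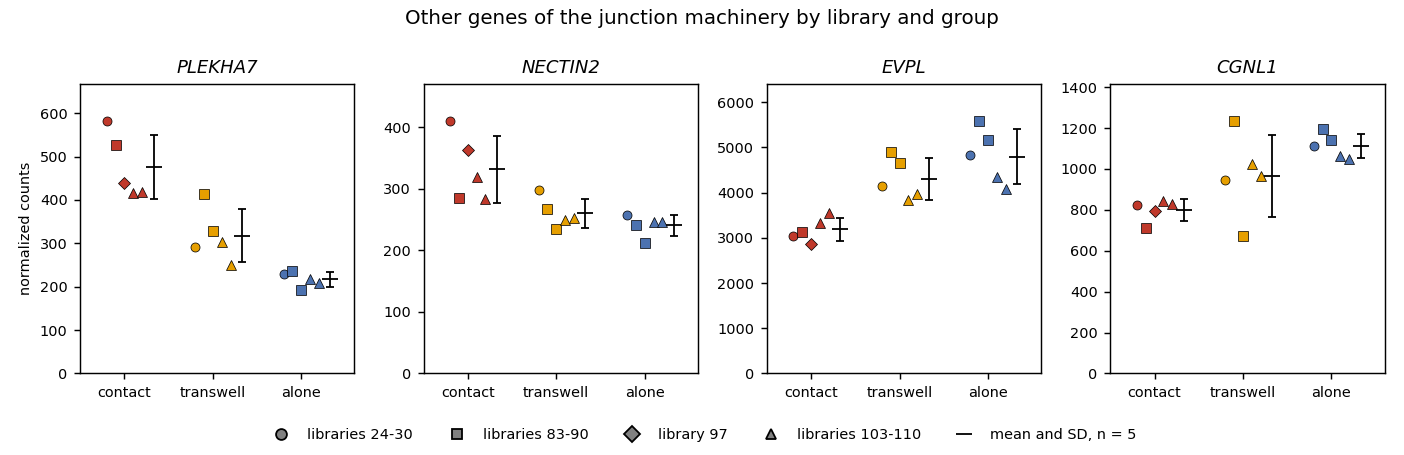
Normalized counts of PLEKHA7, NECTIN2, EVPL and CGNL1 in each library by group, with markers for the run of the library number and the mean and SD of 5 libraries; axes start at 0. PLEKHA7 and NECTIN2 are above cells alone in every contact library, and EVPL and CGNL1 below.

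Factors known to act on junction genes were counted from a further list of 22 symbols, 21 in the table and 15 tested. SNAI1, a repressor of CDH1, was the only one called, lower in contact at 230.1 ± 32.7 normalized counts, against 303 ± 41.4 in cells alone (SD, n = 5 each; log2 fold change -0.40 ± 0.11, limma adjusted p = 0.0160). A count of 1 of 15 lower is near the 5.78% of all tested genes called lower. The contact libraries overlapped cells alone. The call was lost without contact library 97 (0.0534) or cells alone 24 (0.0557) or 84 (0.0521), and without both shallow contact libraries (0.0563). The other 7 tested repressors of CDH1 and the 7 tested epithelial factors had no call in any comparison.

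Of 27 tested cell type markers, 2 (DSP and LUM) were called higher in contact than in cells alone, beside 7.17% of all tested genes. Another 2 (TAGLN and CD14) were called lower, beside 5.78%. These counts are near the shares over all genes. The stromal gene LUM was called higher in contact than in cells alone (log2 fold change 0.42, limma adjusted p = 0.0135), 1 of 8 tested stromal markers. LUM had 5223 and 5151 normalized counts in cells alone BEEC.103 and BEEC.104, near the 5529 and 5307 of contact libraries 107 and 108. Cells alone 24, 83 and 84 had 4522, 4098 and 4281. TAGLN was called lower (-0.42, limma adjusted p = 0.0451), 1 of 3 tested muscle markers, whose list summed to 6730.1 to 7841 in contact, 6304 to 11178 in transwell and 7738 to 12812 in cells alone. TAGLN had 6303, 7774 and 6933 normalized counts in cells alone 24, 83 and 84, 4914 and 5036 in BEEC.103 and BEEC.104, and 4195 to 4769 in contact. CD14 was called lower (-0.52, limma adjusted p = 0.00329), 1 of 2 tested leukocyte markers, while PTPRC, the defining marker of leukocytes, averaged 0.146, 0 and 0.350 in contact, transwell and cells alone. Their part in the junction results was not tested.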

How the data were processed

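Polyadenylated RNA was sequenced as strand-specific paired reads of 100 bases, per the labels' protocols. The deposited table holds a signal per gene and library, read counts the authors divided by a size factor; 100% of values were whole reads within 0.01 of a read once divided by the value of 1 read. FastQC 0.71, DESeq2 1.18.1, HISAT2 2.1.0 and featureCounts 1.6.2 are named without a role, per the submitters' processing notes. Build, annotation and use of strand in counting were not given in the sources used here, so reads of overlapping genes and close paralogs are uncertain. The deposited table also holds the authors' log2 fold changes, a test score, and p-values with an FDR.

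From these values, limma 3.58.1 (R 4.3.3, mean-variance trend, robust empirical Bayes) was fitted to log2(value + 1), with 1 coefficient per group over 15 libraries. Genes needed at least 10 in at least 5 libraries (12559 of 19994), and p was adjusted by Benjamini-Hochberg over all of them, with a threshold of 0.05. Fold changes on the log2(value + 1) scale understate those of low genes. As an alternative on the recovered reads, edgeR 4.0.16 (TMM) and DESeq2 1.42.0 were run. Other pseudocounts, filters, normalizations, library weights, the run as a block and leaving out libraries were also tried. Contact library 97 is the only library of its run, so the block fit leaves it out of the group differences. The log2 fold changes of DSG2, DSC3, PKP4 and the called genes of the other junction and regulator lists were added after seeing the data. The fit was tested on simulated data. Members and lists were chosen with earlier results of these data known. Values per library are given for members called in any comparison, for CDH1, DSP and OCLN, and for the highest and the lowest-p tested member of each role; genes of the other lists are named where called. Some members are counted but not reported here. All 62 member symbols matched the RefSeq table of assembly ARS-UCD2.0, used for gene order only.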

Additional observations from a re-analysis of the deposited data

Results flagged for a closer look

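Among 93 groups of 5 libraries (31 tested members in 3 groups), 5 held a library whose gap to the nearest other exceeded 0.71 of the group's range. Chance flags about 1 in 20 groups. Contact library 28 was high for CDH1, at 1698 normalized counts beside 1377 to 1462 in the other contact libraries. It was also high for OCLN, at 176 beside 137 to 146. Contact library 97, the shallowest, was high for DSC3, at 37.0 beside 18.9 to 23.4. Transwell library 110 was low for PKP2, at 766 beside 808 to 815. Transwell library 90 was low for TJP1, at 11557 beside 18965 to 20612.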

How the results depend on the processing

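In contact over cells alone, the 3 members called higher became 6 in a fit of the 2 groups, 5 with library weights and 1 without both shallow contact libraries, and 0 to 6 when 1 library was left out (0 without cells alone 24 or 83, 6 without transwell 90). Beside this, the 901 of all tested genes called higher became 685 to 1103 when 1 library was left out, with 1103 also without transwell 90. The 4 members called lower became 2 without both shallow contact libraries, and 2 to 5 when 1 library was left out. With library weights DSG2 (limma adjusted p = 0.00614) and DSC3 (0.0261) were called lower as well, and DSG2 was in a fit of the 2 groups (0.00511). In transwell over cells alone the 1 called lower became 0 to 2 when 1 library was left out. In contact over transwell the 1 called higher became 0 with no filter, in a fit of the 2 groups and without both shallow contact libraries, and 0 to 2 when 1 library was left out; the 0 called lower became 0 to 1. The cause was not tested. Over all tested genes, the 726 lower in contact than in cells alone became 420 without both shallow libraries. They became 472 to 981 when 1 library was left out (472 without cells alone 83, 981 without transwell 90). The 14 lower in transwell than in cells alone became 33 with DESeq2, 52 with the run as a block, 22 with library weights and 3 to 19 when 1 library was left out. The 229 lower in contact than in transwell became 111 in a fit of the 2 groups, 344 with the run as a block, 84 without both shallow libraries and 115 to 350 when 1 library was left out. The 469 higher in contact than in transwell became 305 without both shallow libraries and 326 to 561 when 1 library was left out. With the run as a block, members called in contact over cells alone were DSP, F11R, GJA1 and JUP higher and CDH3, DSC2, DSC3, DSG2 and GJA4 lower. No called value reversed its sign in any alternative. No paired analysis was possible because the library numbers in the titles are shared by no groups.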

Other observations

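The members below the filter gave no call when tested without it. In contact over cells alone the smallest adjusted p-values were those of PKP3, a plakophilin, at a log2 fold change of 1.03 (limma adjusted p = 0.115), and CLDN3, at 0.88 (limma adjusted p = 0.177). PKP3 had 5, 4, 1, 4 and 3 reads in contact, 1, 4, 1, 3 and 4 in transwell, and 0, 1, 3, 3 and 3 in cells alone.

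The relative spread between libraries of 1 group was near that of all genes. The median coefficient of variation of the 31 tested members was 8.79%, 14.0% and 9.56% in contact, transwell and cells alone, beside 9.85%, 12.3% and 8.53% over all tested genes. GJA4 had the widest spread in each group, at 83.2%, 43.3% and 50.7%, and the narrowest were CTNND1 in contact (2.50%), PKP2 in transwell (2.64%) and GJA5 in cells alone (2.64%).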
